A study of Mus musculus with 62 samples.

Results

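The striatum of female C57BL/6 mice given 6 mg/kg of a polychlorinated biphenyl (PCB) mixture by mouth was compared with the striatum of females of the same strain given vehicle alone. The comparison holds 10 of the 62 libraries of the series, chosen by their tissue and treatment labels: 6 libraries at 6 mg/kg (animals 52, 53, 54, 55, 56 and 58) and 4 vehicle libraries (animals 3, 4, 7 and 8). The remaining 11 striatum libraries, 5 at 0.1 mg/kg and 6 at 1 mg/kg, entered the same fit and shared its estimate of the spread. RNA came from tissue punches, and counts per gene were measured by RNA sequencing. The mixture is named MARBLES in the series description. The age of the mice, the number of doses and the time between dosing and tissue collection are not given in the sources used here, and no genotype other than the strain is labelled. The labels do not say that the libraries came from separate litters or batches, so p-values measure the spread between these libraries alone.

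The striatum is the input nucleus of the basal ganglia and is made mostly of GABAergic projection neurons, which divide into a direct pathway marked by the dopamine receptor Drd1 and an indirect pathway marked by Drd2. Immediate early genes such as Fos and Egr1 are transcribed within minutes of synaptic activity, through calcium, cyclic AMP and MAP kinase signals that act on factors already present in the cell, such as CREB. PCBs are persistent industrial chemicals: dioxin-like congeners bind the aryl hydrocarbon receptor, whereas others are known to sensitise ryanodine receptors, activate the liver receptors CAR and PXR, and disturb thyroid hormone and dopamine handling.

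Total counts ranged from 8.28 M (mega) to 12.02 M over the 21 striatum libraries. The 6 libraries at 6 mg/kg averaged 8.88 ± 0.249 M (SD), fewer than the 10.3 ± 0.139 M of the 4 vehicle libraries (SD), without overlap (two-sided exact permutation test over 210 splits, p = 0.00952, the smallest this design allows). Since the labels name no batch, a batch that went with these totals cannot be told apart from dose. The libraries also differed in how their levels followed the GC content of the transcripts, summarised per library by Spearman's correlation, over all genes, of GC content with the difference from the average library. This GC slope lay between 0.291 and 0.432 at 6 mg/kg, whereas in vehicle it was -0.215 in animal 3, -0.410 in animal 4, 0.392 in animal 7 and 0.246 in animal 8 (exact permutation test, p = 0.0476). The library of animal 54 at 6 mg/kg stood apart on the second principal component, at 55.5 against 6.15 to 11.8 for the other 5 at this dose, and its levels followed transcript length most strongly (Spearman correlation -0.644). Striatal identity markers were high in all 10 libraries, with a summed level of 7842 to 14726 CPM, the count scaled to library size after TMM normalisation, in vehicle and 9329 to 14820 CPM at 6 mg/kg. Markers of cortical excitatory neurons were also detected in every library: none of the 10 was at 0, and their sum was 430 CPM in vehicle animal 3, 159 in animal 4, 499 in animal 7 and 1314 in animal 8, against 133 to 567.5 CPM at 6 mg/kg.

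**Figure D1:**
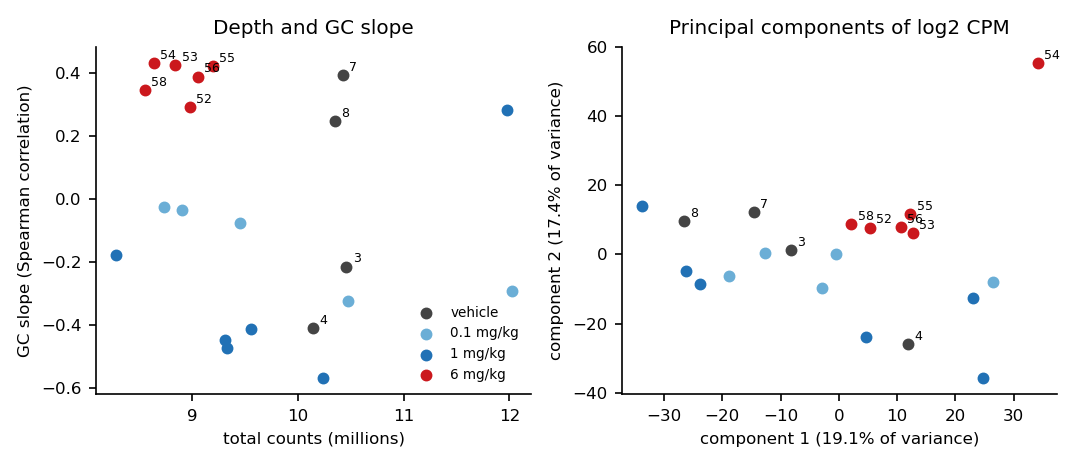
Left, total counts in mega (M) against the GC slope of each of the 21 striatum libraries, coloured by dose and numbered by animal for vehicle and 6 mg/kg; right, the first 2 principal components of log2 CPM. The 6 libraries at 6 mg/kg lie together at 8.55 to 9.20 M counts and a GC slope of 0.291 to 0.432, while the 4 vehicle libraries spread from -0.410 to 0.392, and animal 54 lies apart on the right.

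No gene passed the adjusted threshold in the comparison of 6 mg/kg with vehicle. Of 15118 tested genes, 0 (0%) had an adjusted p under 0.05 by edgeR's quasi-likelihood test with Benjamini-Hochberg adjustment. An unadjusted p under 0.05 was found for 2377 genes (15.7%), of which 1131 (7.48%) were higher and 1246 (8.24%) lower at 6 mg/kg. In 253 genes (1.67%) every 6 mg/kg library lay above every vehicle library, and in 288 (1.91%) every one lay below. Among the gene lists, 12 of 17 immediate early genes and 6 of 12 MAP kinase feedback genes were lower at that unadjusted threshold, and 3 of 12 oligodendrocyte genes and 4 of 12 microglial genes were higher. Of 18 projection neuron identity markers, 1 was higher and 0 were lower. The genes higher at an unadjusted p under 0.05 had a median GC content of 55.9% and a median transcript length of 2406 bases, and the lower ones 44.2% and 5899 bases, against 49.99% and 3468 bases over all tested genes. Without vehicle animal 4 the unadjusted count was 1539, with 5.36% of genes lower and 4.75% higher, and without animal 54 it was 1656, with 6.12% lower. When GC content and transcript length were offset in the fit, 5.15% were lower and 5.01% higher. In a bulk sample, fewer cells of a type and less RNA per cell cannot be told apart.

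Other fits of the same libraries gave other counts. DESeq2 called 31 of the 14824 genes (0.209%) for which it gave an adjusted p, 14 higher and 17 lower. Against the mean of the vehicle, 0.1 and 1 mg/kg groups, which also holds the 11 libraries of the lower doses, edgeR called 1200 genes higher (7.94%) and 1131 lower (7.48%) at an adjusted p under 0.05. When GC content and transcript length were offset in the fit, that reference gave 188 genes. It gave 0 when the GC slope was a covariate, with 1875 at an unadjusted p under 0.05.

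Of 17 immediate early genes, 12 were lower at 6 mg/kg than in vehicle at an unadjusted p under 0.05 and 0 were higher, read against 8.24% lower and 7.48% higher over all genes. The log2 fold changes of the 17 were negative, with a median of -0.74 against 0.01 over all tested genes. In 6 of them, Fos, Fosl2, Nr4a3, Egr1, Egr2 and Btg2, the libraries did not overlap, read against 1.91%. None passed the adjusted threshold by edgeR. Fos, Fosl2, Nr4a3, Egr1 and Arc are named by rule, and the other members were chosen after their values were seen.

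The bases before the start site are shown for 4 of the 12 members with an unadjusted p under 0.05. RefSeq promoter sequences of GRCm38.p6 matched 13 of the 17 genes by symbol; Arc, Egr1, Egr3 and Ier2 were not matched. The motif searched was TGACG on both strands, the core of the cyclic AMP response element that CREB binds, within the 250 bases before each start. It was present in 11 of the 13 genes (84.6%) at any listed start, and in 5347 of all 27025 genes of the table (19.8%). The longer palindrome TGACGTCA, which contains TGACG on both strands, was present in 2 of the 13, Dusp1 and Btg2, and in 478 of the 27025 (1.77%). Each sequence below is written 5′ to 3′ along the gene and ends at the base before a transcript start listed in that table, with every match to TGACG or its reverse complement in capitals. They are Fos at chr12:85473640-85473889 (plus strand), Nr4a3 at chr4:48045055-48045304 (plus strand), Dusp1 at chr17:26508473-26508722 (minus strand) and Fosl2 at chr5:32136222-32136471 (plus strand).
Fos: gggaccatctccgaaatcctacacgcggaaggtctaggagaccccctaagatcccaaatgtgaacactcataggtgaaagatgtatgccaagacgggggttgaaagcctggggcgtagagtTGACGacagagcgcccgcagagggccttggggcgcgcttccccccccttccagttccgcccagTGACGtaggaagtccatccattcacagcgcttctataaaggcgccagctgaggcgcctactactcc
Nr4a3: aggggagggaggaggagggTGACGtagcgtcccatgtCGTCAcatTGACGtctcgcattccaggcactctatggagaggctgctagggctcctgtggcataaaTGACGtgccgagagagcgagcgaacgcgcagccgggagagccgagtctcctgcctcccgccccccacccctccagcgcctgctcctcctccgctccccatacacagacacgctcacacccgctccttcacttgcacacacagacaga
Dusp1: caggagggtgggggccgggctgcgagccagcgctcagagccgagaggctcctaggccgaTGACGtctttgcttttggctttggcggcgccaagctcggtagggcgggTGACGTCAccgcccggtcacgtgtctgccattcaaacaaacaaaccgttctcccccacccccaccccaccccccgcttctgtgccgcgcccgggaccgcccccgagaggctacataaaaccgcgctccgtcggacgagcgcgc
Fosl2: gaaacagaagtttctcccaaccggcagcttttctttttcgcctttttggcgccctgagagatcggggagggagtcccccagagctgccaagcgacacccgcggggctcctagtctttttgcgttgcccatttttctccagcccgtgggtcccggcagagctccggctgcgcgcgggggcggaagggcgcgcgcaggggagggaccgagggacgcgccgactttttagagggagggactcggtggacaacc
Fos had 2 matches, Nr4a3 4 and Dusp1 3, the last including the palindrome. The start listed for Nr4a3 lies after the first base of the gene span given with its values, so most of its window, with 3 of its 4 matches, falls inside that span. The Fosl2 window held no match, although Fosl2 had the smallest p of the 17 genes. A match describes letters and was not tested as a binding site. The 13 matched genes include Jun, Egr4 and Npas4, whose unadjusted p was above 0.05, and a link between the motif and dose was not tested.

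Fos (Entrez 14281, chr12:85473890-85477274), a subunit of the AP-1 transcription factor, had 29.05, 28.7, 30.7 and 46.7 CPM in vehicle animals 3, 4, 7 and 8. At 6 mg/kg its lowest value was 10.2, its median 12.9 and its highest 21.9 CPM. The log2 fold change was -1.24 (SE 0.328, adjusted p 0.208 in edgeR). Every treated library lay below every vehicle library, and vehicle animal 8 was the highest of all 10.

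Fosl2 (Entrez 14284, chr5:32136472-32157840), another AP-1 subunit, had 48.7, 44.5, 82.4 and 99.4 CPM in vehicle animals 3, 4, 7 and 8. Its values at 6 mg/kg ran from 14.9 through a median of 29.5 to 33.9 CPM. The log2 fold change was -1.40 (SE 0.332, adjusted p 0.208 in edgeR, DESeq2 adjusted p 0.0485). The vehicle libraries fell into a lower and a higher pair, and the treated libraries lay below both.

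Nr4a3 (Entrez 18124, chr4:48045078-48086447), an orphan nuclear receptor induced by activity, had 31.3, 29.1, 52.4 and 79.96 CPM in vehicle animals 3, 4, 7 and 8. At 6 mg/kg it ran from 8.15 through a median of 15.9 to 24.5 CPM. The log2 fold change was -1.63 (SE 0.448, adjusted p 0.208 in edgeR), the lowest among genes other than predicted models with a mean of at least 1 CPM over the 10 libraries and an unadjusted p under 0.05. Animals 7 and 8 were again the higher vehicle libraries.

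Egr1 (Entrez 13653), a zinc finger factor, had 362, 295, 499 and 494 CPM in vehicle animals 3, 4, 7 and 8, and from 187 through a median of 235 to 277 CPM at 6 mg/kg. Its log2 fold change was -0.84 (SE 0.238, adjusted p 0.208 in edgeR). Its relative Egr2 had 15.8, 12.9, 26.4 and 21.4 CPM in vehicle and from 4.82 through 7.79 to 12.05 CPM at 6 mg/kg, a log2 fold change of -1.22 (SE 0.393). Neither gene's groups overlapped. Arc, which encodes a synaptic protein that carries its own messenger RNA, did overlap, with 168, 116, 254 and 261 CPM in vehicle and 84.3 to 157 CPM at 6 mg/kg, a log2 fold change of -0.84 (SE 0.373).

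Of the other members, Junb averaged 130 ± 36.7 CPM over the 4 vehicle libraries and 83.3 ± 19.8 CPM over the 6 treated ones (both SD), and Nr4a1 averaged 161 ± 60.6 and 78.2 ± 23.2 CPM. Arc and Junb each had an unadjusted p above 0.05 when any single one of vehicle animals 7 and 8 and animals 52, 53, 55 and 56 was left out, as did Nr4a1 without vehicle animal 7 and Btg2 without vehicle animal 3. The same held for Fosb and Nr4a2 without either of vehicle animals 7 and 8 (unadjusted edgeR p 0.0518 and 0.0818 for Fosb, 0.0853 and 0.169 for Nr4a2), and for Dusp1 without vehicle animal 8 (0.0541). Egr3, Egr4, Npas4, Jun and Ier2 had unadjusted p-values above 0.05, with log2 fold changes of -0.35, -0.55, -0.63, -0.25 and -0.02. Summed over the 17 genes, the level was 1335 CPM in vehicle animal 3, 1052 in animal 4, 1977 in animal 7 and 1954 in animal 8, and 793 to 1102 CPM at 6 mg/kg. Vehicle animal 4 thus lay within the treated range, and animal 54, at 1102 CPM, was the highest treated library.

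The 1 mg/kg group spread more widely than the others, from 551 to 1820 CPM summed over the 17 genes, and the 0.1 mg/kg group lay between 1241 and 1625 CPM. Relative to the same 4 vehicle libraries, the median log2 fold change of the 17 genes was -0.52 for 1 mg/kg and -0.16 for 0.1 mg/kg. With 1 mg/kg as the reference, 4 of the 17 were lower at 6 mg/kg at an unadjusted p under 0.05, read against 17.2% of all genes lower in that comparison, with a median of -0.19. With 0.1 mg/kg as the reference 10 were, read against 10.7%, with a median of -0.70. Against the mean of the 3 other groups, 5 of the 17 passed the adjusted threshold by edgeR's quasi-likelihood test, read against 7.48% of all genes.

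The count of 12 lower members was 7 without vehicle animal 7, read against 9.22% of all genes lower in that fit, and 7 without vehicle animal 8, read against 6.36%. It ranged from 10 to 15 with any other single library left out. Without animal 54 it was 14, read against 6.12%. It was also 14 under the GC and length offset, read against 5.15% of all genes lower in that fit, and 13 under the GC slope covariate, read against 6.99%. Of 10 cortical neuron markers, 1, Fezf2, was lower at an unadjusted p under 0.05, read against 8.24%; the log2 fold changes of all 10 were negative, with a median of -0.999. Without vehicle animal 8 the cortical median was -0.11, and without vehicle animal 4 it was -1.31 with 4 lower, read against 5.36% of all genes in that fit. With the mean cortical marker level of each library as a covariate, 7 of the 17 immediate early genes were lower at an unadjusted p under 0.05, read against 9.44% of all genes, with a median of -0.54. Of 3 red blood cell transcripts 3 were lower at an unadjusted p under 0.05, read against 8.24%, with a median of -1.36; their sum was 545 CPM in vehicle animal 8 and 68.2 to 133 CPM in the other vehicle libraries, against 43.8 to 139 CPM at 6 mg/kg. Without vehicle animal 8 the blood median was -0.30 with 0 lower, read against 6.36%. Without animal 58 or animal 52 at 6 mg/kg 0 were lower as well, with medians of -1.19 and -1.30. The part of blood RNA in the immediate early gene difference was not tested.

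**Figure D2:**
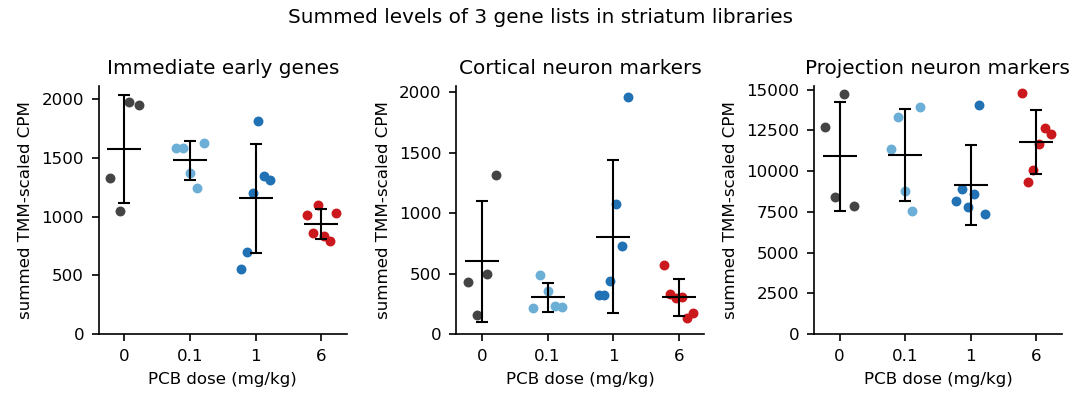
Summed TMM-scaled CPM of 17 immediate early genes, 10 cortical neuron markers and 18 projection neuron identity markers in each striatum library, by dose in mg/kg; points are libraries, bars means and whiskers 1 SD. Vehicle animals 7 and 8, at 1977 and 1954 CPM, hold the highest immediate early gene sums, animal 8 also holds the highest vehicle sum of cortical markers at 1314 CPM, and the projection neuron sums overlap between all doses.

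In the prefrontal cortex of the same dose groups, 16 of the 17 genes had a negative log2 fold change at 6 mg/kg. Their median was -0.41, read against 0.01 over all genes compared. No p-value was taken for the prefrontal cortex values alone. The interaction of tissue and dose had an unadjusted p under 0.05 for 2 of the 17, read against 6.43% of all genes. They were Egr1, with a log2 fold change of -0.13 in prefrontal cortex and an interaction of -0.72, and Fosl2, with -0.45 and -0.96; neither passed the adjusted threshold. For the other 15 the interaction had an unadjusted p above 0.05, which does not show that the regions respond alike.

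Genes that limit or follow MAP kinase signalling, several of which are themselves transcribed in response to it, were examined next. Of 12 tested, 6 were lower and 1 was higher at an unadjusted p under 0.05, read against 8.24% lower and 7.48% higher over all genes, with a median of -0.29. Dusp4, a nuclear MAP kinase phosphatase, had 13.0, 17.7, 18.8 and 24.9 CPM in vehicle animals 3, 4, 7 and 8 and 10.05 to 13.99 CPM at 6 mg/kg, a log2 fold change of -0.61 (SE 0.161, adjusted p 0.208 in edgeR). Dusp6, a phosphatase of ERK, had 48.6, 33.8, 63.8 and 58.1 CPM in vehicle and 23.6 to 34.8 CPM at 6 mg/kg, a log2 fold change of -0.82 (SE 0.221, adjusted p 0.208 in edgeR). For both, the treated range reached past 1 vehicle library, animal 3 for Dusp4 and animal 4 for Dusp6. Dusp5, named after its values were seen, did not overlap: vehicle libraries held 14.5, 14.4, 14.4 and 16.4 CPM and treated libraries 8.99 to 9.92 CPM. Spry4, an inhibitor of growth factor signalling, had a log2 fold change of -0.47 (SE 0.138), and Spred1 and Etv5, also chosen after their values were seen, had -0.25 and -0.37. The value of Etv5 without vehicle animal 8 was -0.13, with an unadjusted edgeR p of 0.411, and its p was above 0.05 without animals 53, 54 or 56 as well; that of Spred1 was above 0.05 without vehicle animal 3. The higher member was Etv4, an ETS factor, with 6.12, 5.39, 8.10 and 7.58 CPM in vehicle and 8.99 to 12.3 CPM at 6 mg/kg, a log2 fold change of 0.63 (SE 0.191, adjusted p 0.208 in edgeR).

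The 12 lower genes with the smallest p had log2 fold changes from -1.40 to -0.30 and the 12 higher ones from 0.42 to 1.24, each with an edgeR adjusted p of 0.208. The groups did not overlap in 9 of the 12 lower and 11 of the 12 higher genes. Since the smallest p-values chose these genes, the counts describe them and support nothing further. All 24 kept an unadjusted p under 0.05 with any 1 library left out, and each passed the DESeq2 threshold. Both fits used the libraries that chose the genes, so neither adds support.

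The lower gene with the smallest p was Zfp260 (Entrez 26466, chr7:30094782-30107622), a zinc finger transcription factor. It had 42.8, 45.3, 34.6 and 43.4 CPM in vehicle animals 3, 4, 7 and 8 and ran from 25.8 through a median of 31.1 to 33.0 CPM at 6 mg/kg. The log2 fold change was -0.44 (SE 0.0905, adjusted p 0.208 in edgeR, DESeq2 adjusted p 0.0238). The 0.1 and 1 mg/kg groups averaged 37.0 and 41.3 CPM. In prefrontal cortex its log2 fold change was 0.05.

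Arl5b (Entrez 75869, chr2:15055252-15082456), a small GTPase of the Golgi, had 22.6, 21.96, 18.2 and 24.7 CPM in vehicle animals 3, 4, 7 and 8 and ran from 10.01 through 13.3 to 15.3 CPM at 6 mg/kg. The log2 fold change was -0.76 (SE 0.157, adjusted p 0.208 in edgeR). Igf1 (Entrez 16000, chr10:87858265-87937047), insulin-like growth factor 1, had 4.78, 4.91, 3.26 and 4.89 CPM in vehicle and ran from 1.68 through 2.14 to 2.58 CPM at 6 mg/kg, a log2 fold change of -1.06 (SE 0.221, adjusted p 0.208 in edgeR). Both genes were near vehicle level at 1 mg/kg, with averages of 21.9 and 4.42 CPM. At 0.1 mg/kg their medians were 20.2 and 3.73 CPM, against vehicle medians of 22.3 and 4.83 CPM. The remaining lower genes of this set were Ccdc6, Cnot4 (a ubiquitin ligase subunit of the CCR4-NOT complex), Ythdf1 (a reader of methylated adenosine in messenger RNA), Olfm3, Dpp10 (an auxiliary subunit of Kv4 potassium channels), Prdm2, Cstf2t (a 3' end processing factor), Luzp1 and Fosl2.

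Ntsr2 (Entrez 18217, chr12:16653443-16660236), a neurotensin receptor found mainly in astrocytes, was the higher gene with the smallest p. It had 128, 134, 138 and 123 CPM in vehicle animals 3, 4, 7 and 8 and ran from 154 through 174 to 212 CPM at 6 mg/kg, a log2 fold change of 0.44 (SE 0.0961, adjusted p 0.208 in edgeR). Srsf5 (Entrez 20384), an SR splicing factor, had 132, 126, 138 and 124 CPM in vehicle and ran from 149 through 172 to 210 CPM at 6 mg/kg. It averaged 167 CPM at 1 mg/kg as well, close to the 174 CPM at 6 mg/kg, and 119 CPM at 0.1 mg/kg.

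Slc27a1 (Entrez 26457), a fatty acid transporter, had 99.3, 107, 145 and 119 CPM in vehicle animals 3, 4, 7 and 8 and only 154 to 167 CPM at 6 mg/kg, so its treated libraries were closer together than its vehicle libraries. The log2 fold change was 0.45 (SE 0.102, adjusted p 0.208 in edgeR). Sec14l3, a lipid-binding protein, averaged 1.54 ± 0.390 CPM over the 4 vehicle libraries and 3.65 ± 0.882 CPM over the 6 treated ones (both SD). The rest of the higher set was Kyat1 (a kynurenine aminotransferase), Arrb2 (beta-arrestin 2), Hps1, Ppcs (an enzyme of coenzyme A synthesis), Ssh3, Ltbp3 (which binds latent TGF-beta), Miip and Col26a1.

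**Figure D3:**
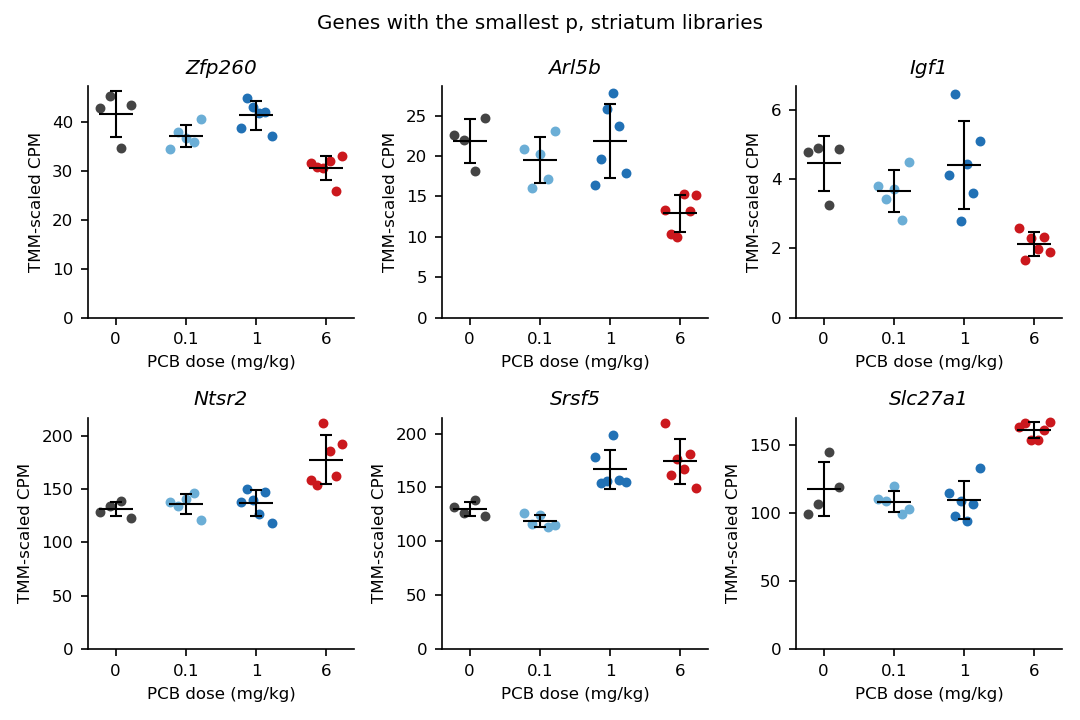
TMM-scaled CPM of the 3 lower genes (top) and the 3 higher genes (bottom) with the smallest p, in each striatum library by dose in mg/kg; points are libraries, bars means and whiskers 1 SD. At 6 mg/kg all libraries of Zfp260, Arl5b and Igf1 lie below, and all of Ntsr2, Srsf5 and Slc27a1 above, the vehicle libraries; Srsf5 is already high at 1 mg/kg.

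By size of change, the lowest log2 fold changes after Nr4a3 belonged to Fezf2 (-1.51), Alas2 (-1.46), Npsr1 (-1.43) and Hbb-b1 (-1.41). Fezf2, a factor of deep-layer cortical neurons, had 35.1 CPM in vehicle animal 8 and 3.66 to 8.002 CPM in the other vehicle libraries, against 2.24 to 7.19 CPM at 6 mg/kg. Hbb-b1, a haemoglobin chain whose reads can be shared with near-identical copies, had 129 CPM in vehicle animal 8 and 20.4 to 34.7 CPM in the others, against 6.85 to 29.6 CPM at 6 mg/kg. When vehicle animal 8 was left out, the log2 fold changes were -0.36 for Fezf2, -0.30 for Alas2, -0.90 for Npsr1 and -0.42 for Hbb-b1, each with an unadjusted p above 0.05. Fezf2 and Hbb-b1 lost that p in 4 of the 10 leave-one-out fits and Alas2 in 3. The highest were genes at low level: Traf1 (1.64), Lpxn (1.44), Tbc1d10c (1.43), Cd36 (1.30) and Il3ra (1.25). Traf1, a TNF receptor adaptor, had 0.956, 2.12, 1.28 and 0.199 CPM in vehicle animals 3, 4, 7 and 8 and 2.92 to 4.03 CPM at 6 mg/kg, without overlap. Cd36 had an unadjusted p above 0.05 without animal 54 or vehicle animals 7 or 8.

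Projection neuron markers overlapped between the groups. Of 18 identity markers 1 was higher at an unadjusted p under 0.05 (Ptpn5, the striatum-enriched phosphatase STEP, log2 fold change 0.35) and 0 were lower, read against 7.48% and 8.24% over all genes, with a median of 0.09. Without vehicle animal 4 the value of Ptpn5 was 0.22, with an unadjusted edgeR p of 0.191, and it had a p above 0.05 without vehicle animals 3 or 8 or animals 52 or 56 as well. Ppp1r1b, which encodes DARPP-32, had 1853, 984, 2535 and 1086 CPM in vehicle animals 3, 4, 7 and 8 and 1511 to 2609 CPM at 6 mg/kg. Vehicle animals 3 and 7 were high and 4 and 8 low, as they were for the identity sum (12698, 8402, 14726 and 7842 CPM). Drd1 averaged 157 ± 43.1 CPM over the 4 vehicle libraries and 133 ± 27.3 CPM over the 6 treated ones (both SD), and the median of 6 direct-pathway markers was -0.26 with 0 at an unadjusted p under 0.05. Drd2 averaged 192 ± 78.5 and 227 ± 35.1 CPM, and the median of 6 indirect-pathway markers was 0.18. With a library left out the direct-pathway median ran from -0.31 to -0.14 and the indirect-pathway median from 0.052 to 0.31. Sp9, a factor required for indirect-pathway neurons, had 49.3, 43.5, 54.04 and 45.8 CPM in vehicle and 52.9 to 59.6 CPM at 6 mg/kg, a log2 fold change of 0.22 (SE 0.0810) whose unadjusted p was above 0.05 without vehicle animal 4. Of 13 interneuron markers 0 had an unadjusted p under 0.05, with Sst at 237 ± 52.8 CPM in vehicle and 286 ± 78.8 CPM at 6 mg/kg.

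Receptors and scaffolds of glutamate synapses were lower in 6 and higher in 1 of 27 cases at an unadjusted p under 0.05, read against 8.24% and 7.48% over all genes, with a median of -0.14. Gria2, an AMPA receptor subunit, had 482, 518, 468 and 492 CPM in vehicle animals 3, 4, 7 and 8 and ran from 254 through 409 to 448 CPM at 6 mg/kg, without overlap, a log2 fold change of -0.34 (SE 0.130, adjusted p 0.235 in edgeR). Grin2a, an NMDA receptor subunit, had 69.9 to 100.004 CPM in vehicle and 28.8 to 69.2 CPM at 6 mg/kg (log2 fold change -0.53). Animal 54 held the lowest sum of the 27 genes, 5498 CPM against 6378 to 7885 CPM in vehicle. Without it 4 were lower, read against 6.12% of all genes lower in that fit. Without vehicle animal 8, 3 were lower, read against 6.36%. With the GC and length offset the count was 1 lower and 0 higher, read against 5.15% and 5.01%, with a median of -0.08. Among 19 GABA synapse genes 3 were lower, Gabrb1 among them, with a median of -0.19 that was -0.07 with the offset. Without vehicle animal 4, 0 of the 19 were lower, read against 5.36% of all genes in that fit, and Gabrb1 was -0.28. Grin2a had an unadjusted p above 0.05 without vehicle animal 8. The GABA-synthesising enzyme Gad1 averaged 738 ± 91.9 CPM over the 4 vehicle libraries and 677 ± 75.1 CPM over the 6 treated ones (both SD).

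Of 6 tested aryl hydrocarbon receptor genes 1 was lower and 0 were higher at an unadjusted p under 0.05, read against 8.24% and 7.48% over all genes, with a median of -0.33 that ran from -0.43 to -0.16 with a library left out. The lower member was Tiparp, an ADP-ribosyltransferase that represses the receptor, with 23.03, 24.3, 26.4 and 19.7 CPM in vehicle animals 3, 4, 7 and 8 and from 12.5 through 14.5 to 16.8 CPM at 6 mg/kg, a log2 fold change of -0.67 (SE 0.209, adjusted p 0.208 in edgeR). Cyp1b1, a target enzyme, had 2.58, 2.79, 2.67 and 6.38 CPM in vehicle and 1.27 to 3.54 CPM at 6 mg/kg. Its log2 fold change was -0.39, and 0.037 without vehicle animal 8. Ahrr and Aldh3a1 fell under the filter on low counts, and Cyp1a1 and Cyp1a2 had no entry under these symbols among the striatum counts. Of 5 tested CAR and PXR genes, read against the same shares, 0 had an unadjusted p under 0.05, with a median of 0.07. Cyp2b10, Cyp3a11 and Ces2a had no entry under these symbols among the striatum counts.

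Of 26 ryanodine receptor and calcium signalling genes, 5 were lower and 0 higher at an unadjusted p under 0.05, read against 8.24% and 7.48% over all genes, with a median of -0.09. Ryr1 averaged 42.3 ± 13.7 CPM over the 4 vehicle libraries and 52.3 ± 12.4 CPM over the 6 treated ones (both SD), and Ryr3 averaged 75.8 ± 15.6 and 76.7 ± 17.6 CPM. Ryr2 had 106, 121, 111 and 134 CPM in vehicle and 48.4 to 108 CPM at 6 mg/kg, a log2 fold change of -0.40 (SE 0.187, adjusted p 0.306 in edgeR). Creb1, which encodes the factor CREB, had 44.3, 49.0, 41.9 and 46.7 CPM in vehicle and 30.3 to 41.2 CPM at 6 mg/kg, without overlap, a log2 fold change of -0.30 (SE 0.0981, adjusted p 0.208 in edgeR). With the GC and length offset 1 of the 26 was lower and 1 higher, read against 5.15% and 5.01%. Without animal 54 or vehicle animal 8, 2 were lower, read against 6.12% and 6.36% of all genes in these fits. The L-type channel genes Cacna1c and Cacna1d had log2 fold changes of -0.40 and -0.31. Ryr2 had an unadjusted p above 0.05 in 6 of the 10 fits that left out a library, Cacna1c in 3 and Cacna1d in 2.

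Of 13 thyroid hormone genes, 3 were lower and 0 higher at an unadjusted p under 0.05, read against 8.24% and 7.48% over all genes, with a median of -0.22. Without vehicle animal 8, 1 was lower, read against 6.36% of all genes in that fit. Without animal 52 at 6 mg/kg, 5 were lower, where 2454 of 15083 genes had an unadjusted p under 0.05 in either direction. Dio2, the deiodinase that makes active hormone in astrocytes, had 42.1, 35.6, 46.2 and 57.5 CPM in vehicle animals 3, 4, 7 and 8 and from 23.6 through 28.5 to 39.2 CPM at 6 mg/kg, a log2 fold change of -0.59 (SE 0.204, adjusted p 0.213 in edgeR). The receptor gene Thra averaged 882 ± 125 CPM over the 4 vehicle libraries and 885 ± 82.9 CPM over the 6 treated ones (both SD). The coregulators Ncor1 and Ncoa1 were the other lower members, with log2 fold changes of -0.35 and -0.32; both had an unadjusted p above 0.05 without vehicle animal 8, as had Ncoa1 without vehicle animal 4. Of 10 dopamine and monoamine genes 1 was higher: Th, tyrosine hydroxylase, with 9.56, 12.3, 11.7 and 7.88 CPM in vehicle and 8.54 to 19.9 CPM at 6 mg/kg, a log2 fold change of 0.55 (SE 0.237, adjusted p 0.273 in edgeR). Without vehicle animal 8 its value was 0.44, and its unadjusted p was above 0.05 there and without vehicle animal 3, animal 54 or animal 56, so that 0 of the 10 were higher.

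Of 12 oligodendrocyte genes 11 had positive log2 fold changes, read against 7816 of 15118 over all genes, and 3 were higher at an unadjusted p under 0.05, read against 7.48%, with a median of 0.27 (median at 1 mg/kg 0.31 against the same vehicle libraries). Mag, myelin-associated glycoprotein, had 270, 294, 329 and 218 CPM in vehicle animals 3, 4, 7 and 8 and from 333 through 376 to 460 CPM at 6 mg/kg, without overlap, a log2 fold change of 0.49 (SE 0.185, adjusted p 0.232 in edgeR). Mbp, myelin basic protein, had 2541, 2452, 3000 and 1952 CPM in vehicle and 2967 to 4014 CPM at 6 mg/kg (log2 fold change 0.43), and Opalin had a log2 fold change of 0.50. Vehicle animal 8 was the lowest library for all 3. Without it 0 of the 12 had an unadjusted p under 0.05, read against 1936 of 15243 genes in that fit, and the median was 0.14. Of 6 precursor markers 1 was higher, C1ql1, with a median of 0.07; its unadjusted p was above 0.05 without vehicle animals 7 or 8 or animals 54 or 55.

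Of 12 microglial markers, 4 were higher (Trem2, C1qa, C1qc and C1qb) and 1, P2ry12, was lower at an unadjusted p under 0.05, read against 7.48% and 8.24% over all genes, with a median of 0.16. C1qa had 56, 36.1, 46.2 and 36.9 CPM in vehicle animals 3, 4, 7 and 8 and from 49.5 through 56.01 to 75.5 CPM at 6 mg/kg, a log2 fold change of 0.42 (SE 0.137, adjusted p 0.208 in edgeR). Trem2, a lipid-sensing receptor, averaged 13.9 ± 2.39 CPM over the 4 vehicle libraries and 18.7 ± 2.89 CPM over the 6 treated ones (both SD). P2ry12, a purine receptor of resting microglia, averaged 25.3 ± 4.75 and 20.4 ± 2.704 CPM. With the GC and length offset 1 was higher and 1 lower, read against 5.01% and 5.15%. Without vehicle animal 4, vehicle animal 8, animal 54 or animal 55, 2 were higher. In these fits 1539 of 15235, 1936 of 15243, 1656 of 15084 and 2161 of 15092 genes had an unadjusted p under 0.05 in either direction. Without vehicle animal 4, 4.75% of all genes were higher. C1qb had an unadjusted p above 0.05 in 4 of the 10 fits that left out a library and C1qc in 6. P2ry12 did so in 5, with -0.20 without vehicle animal 3. The vessel markers Ly6a and Ly6c1 did not overlap, read against 1.67% of all genes, with log2 fold changes of 0.52 and 0.38. Both were also above vehicle at the lower doses. Ly6a had medians of 13.6, 18.1, 18.8 and 19.7 CPM in vehicle and at 0.1, 1 and 6 mg/kg, and Ly6c1 26.6, 32.2, 30.1 and 32.6 CPM. Flt1 was lower (-0.30), and the median of 13 vessel markers was 0.01. The 12 astrocyte markers had a median of 0.00, with Aldh1l1 higher at an unadjusted p under 0.05 (0.24). Flt1 had a p above that in 5 of the 10 leave-one-out fits, with -0.18 without animal 54 and -0.20 without vehicle animal 4. Aldh1l1 was 0.19 without vehicle animal 4, with an unadjusted edgeR p of 0.0615.

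Choroid plexus and ependymal markers varied widely between single libraries. Of 12, 0 had an unadjusted p under 0.05, and their median log2 fold change of 0.70 ran from 0.026 to 1.44 with a library left out. The values were above 0 for all 12, read against 7816 of 15118 genes, but without animal 52 those of Ttr, Slc4a5 and Enpp2 were -0.32, -0.11 and -0.024, and those of Kl and Tmem212 were also below 0; Tmem212 was below 0 without vehicle animals 3, 7 or 8 as well. Ttr, transthyretin, had 93.1, 607, 23.4 and 3.59 CPM in vehicle animals 3, 4, 7 and 8 and from 4.26 through 168 to 2418 CPM at 6 mg/kg, so the groups overlapped over most of their range. The 4 septal and thalamic neuron markers had a median of 0.03, with 0 at an unadjusted p under 0.05.

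Among stress and hormone genes, the glucocorticoid receptor gene Nr3c1 had 91.1, 94.2, 80.4 and 96.4 CPM in vehicle animals 3, 4, 7 and 8 and 49.0 to 82.5 CPM at 6 mg/kg, a log2 fold change of -0.34 (SE 0.111, adjusted p 0.208 in edgeR). Of its 14-gene list 3 were lower and 1 higher at an unadjusted p under 0.05, and the counts of this and the next 4 lists are read against 8.24% lower and 7.48% higher over all genes. With a library left out the lower count of this list ran from 1 to 4 and the higher count from 0 to 1. Without vehicle animal 4, animal 54, animal 55 or animal 58, 1 was lower. Over all genes 5.36% were lower without vehicle animal 4 and 6.12% without animal 54. Slc7a11, the cystine transporter, was the 1 lower member of 16 NRF2 and antioxidant genes, with 40.2, 47.2, 32.6 and 48.5 CPM in vehicle and 17.7 to 36.7 CPM at 6 mg/kg (log2 fold change -0.55). Of 15 endoplasmic reticulum chaperone genes 1 was lower, Hspa13 (-0.28), and of 15 heat shock genes 2 were lower and 1, Hsf1, was higher (0.35). Leaving out vehicle animal 4 gave -0.16 for Hspa13 and 0.28 for Hsf1, with unadjusted edgeR p-values of 0.113 and 0.0538, and the lower heat shock members, Hspa4 and Hspa4l, also had a p above 0.05 there. Of 18 clock genes 3 were lower and 2 higher, counts that ran from 1 to 4 and from 0 to 3 with a library left out, with Dbp at 157 ± 38.4 CPM over the 4 vehicle libraries and 213 ± 42.9 CPM over the 6 treated ones (both SD) and Per1, also an activity-induced gene, at 160 ± 55.9 and 111 ± 16.9 CPM. Dbp had an unadjusted p above 0.05 without vehicle animal 4, and Per1 in 7 of the 10 fits that left out a library.

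Large gene families were counted in the same way. Of 364 zinc finger genes named Zfp, 41 were lower and 13 higher at an unadjusted p under 0.05, read against 8.24% and 7.48% over all genes, with a median of -0.13. In 13 the treated libraries lay below vehicle without overlap, read against 1.91%, Zfp260, Zfp638 and Zfp84 among them. Their median GC content was 44.3%, and with the GC and length offset 27 were lower and 8 higher, read against 5.15% and 5.01%, with a median of -0.03. Without vehicle animal 4, 27 were lower and 5 higher, read against 5.36% and 4.75%. Ribosomal protein genes had a median of 0.10 with 3 of 79 higher, and nuclear-encoded respiratory chain genes had a median of 0.14 with 4 of 81 higher, read against 7.48% of all genes; the counts ran from 1 to 8 and from 0 to 8 with a library left out. Animal 54 held the highest sum of both, 20109 and 14826 CPM, and without it the medians were -0.04 and 0.01. Without vehicle animal 4, 1 ribosomal and 0 respiratory chain genes were higher, read against 4.75% of all genes in that fit. The next 3 lists are read against the same 8.24% lower and 7.48% higher over all genes, and against 5.15% and 5.01% with the offset. Of 22 ARF and ARL GTPases 4 were lower, Arl5b among them, and 1 was higher, with a median of -0.04. With a library left out the lower count ran from 2 to 6 and the median from -0.083 to -0.019. Of 37 SR and hnRNP splicing factors 2 were higher and 4 lower, and with the offset 7 were higher and 2 lower. With a library left out the higher count ran from 1 to 4 and the lower count from 3 to 5. Of 7 nuclear long noncoding RNAs 3 were higher, Neat1, Snhg11 and Meg3, with a median of 0.48 that was 0.67 with the offset. Meg3 had an unadjusted p above 0.05 without animals 53 or 54 or vehicle animals 3 or 4. Neat1, the scaffold of paraspeckles, had 58.4, 66.3, 79.5 and 51.3 CPM in vehicle animals 3, 4, 7 and 8 and from 68.1 through 101 to 137 CPM at 6 mg/kg, a log2 fold change of 0.62 (SE 0.197, adjusted p 0.208 in edgeR), while Malat1 averaged 191 ± 73.0 and 162 ± 61.4 CPM.

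**Figure D4:**
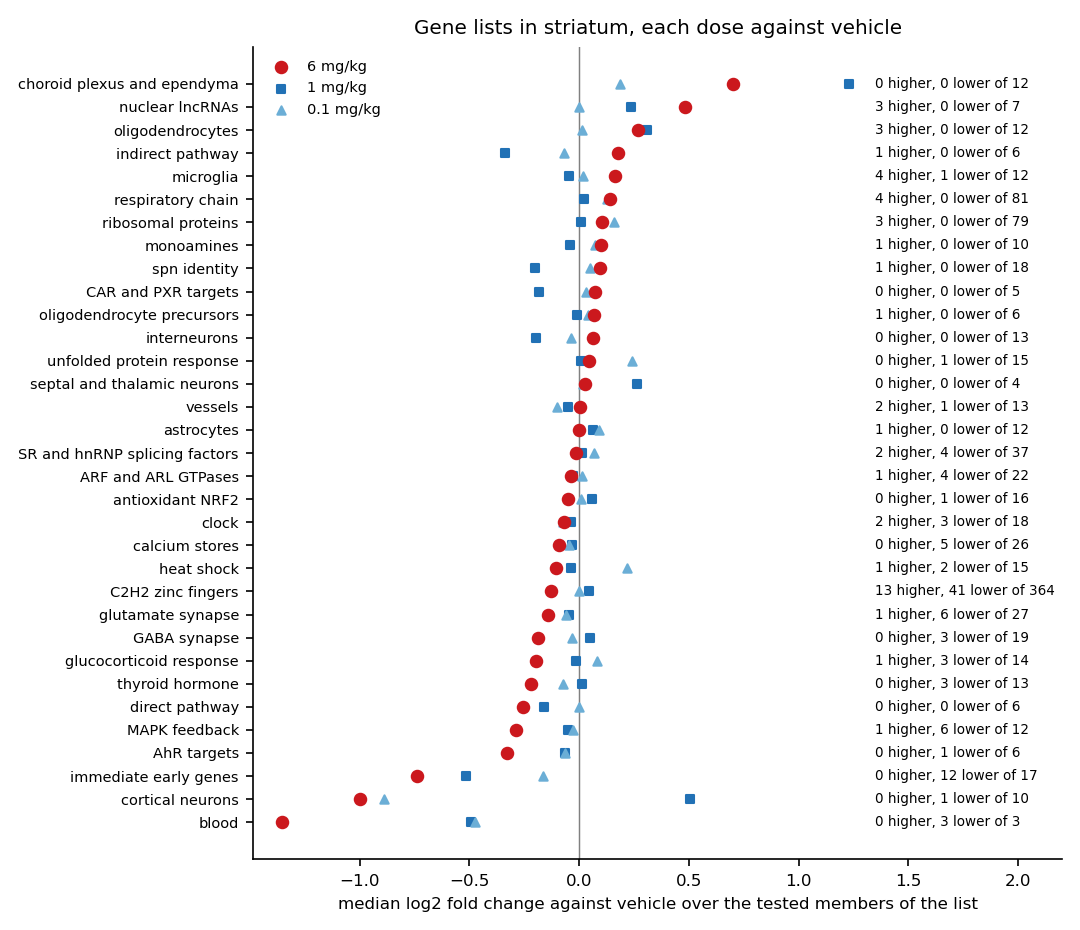
Median log2 fold change against vehicle over the tested members of 33 gene lists in striatum, at 6 mg/kg (circles), 1 mg/kg (squares) and 0.1 mg/kg (triangles), which share the same 4 vehicle libraries; the text at the right counts members at 6 mg/kg with an unadjusted p under 0.05. The immediate early genes have 12 of 17 members lower, with a median of -0.74, and only the cortical and blood lists have lower medians, of -0.999 and -1.36.

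The effect of 6 mg/kg was then compared between striatum and the 2 other organs sampled, prefrontal cortex and liver, by a tissue-by-dose interaction term. Against prefrontal cortex 0 of 15043 genes (0%) passed an adjusted p of 0.05 by edgeR's quasi-likelihood test, with 967 at an unadjusted p under 0.05. DESeq2 also gave 0, with 1059 unadjusted. The gene with the smallest p was Ppwd1, a spliceosomal cyclophilin, with a log2 fold change of -0.27 in striatum and 0.85 in prefrontal cortex (interaction -1.12, edgeR adjusted p 0.746), followed by the predicted gene Gm5512 (interaction -1.84, edgeR adjusted p 0.746). Against liver 4 of 14454 genes (0.0277%) passed by edgeR, and DESeq2 called 134 (0.947% of the genes for which it gave an adjusted p), 43 higher and 91 lower. The 4 were Usp2, a clock-regulated deubiquitinase, at 0.04 in striatum and 1.86 in liver; Dnajb9, a chaperone of the endoplasmic reticulum, at -0.21 and -1.89; Trib1, a pseudokinase, at -0.62 and 1.00; and Wee1, a cell cycle kinase, at -0.23 and 1.60. In striatum itself these 4 overlapped between the groups, with Usp2 at 64.9 ± 13.0 CPM over the 4 vehicle libraries and 67.0 ± 7.73 CPM over the 6 treated ones (both SD) and Trib1 at 11.4, 15.7, 24.2 and 31.9 CPM in vehicle animals 3, 4, 7 and 8 and 11.9 to 17.0 CPM at 6 mg/kg. With the replicate block or without vehicle animal 7, vehicle animal 8 or animal 52 at 6 mg/kg, 0 genes passed against liver, with 1658 to 1939 at an unadjusted p under 0.05. Leaving out animal 56 gave 12, and each of animals 3, 4, 53, 54 and 58 gave 1 or 2.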

How the data were processed

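The authors deposited, for each tissue, 1 table of raw read counts per gene, with Entrez identifiers. Per the submitters' processing notes, reads were checked with FastQC and aligned with HISAT2 to mm10; the counting tool, annotation and use of strand are not given in the sources used here, so reads of overlapping or antisense genes cannot be told apart. Per the labels' protocols, RNA from tissue punches was extracted with TRIzol, cleaned on columns, and either poly(A)-selected or depleted of ribosomal RNA. Every listed gene had at least 10 counts over its table. Symbols, coordinates and promoter sequences came from RefSeq GRCm38.p6, which named 99.9% of the 17874 striatum identifiers, and GC content and length from the longest GENCODE transcript, known for 95.4% of tested genes.

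From these counts, genes were kept by filterByExpr and fitted with edgeR 4.0.16 (TMM, robust quasi-likelihood, all 21 striatum libraries). P-values were adjusted by Benjamini-Hochberg over all tested genes, with a threshold of 0.05. The standard error was taken as |log2 fold change| over the root of F. CPM are TMM-scaled, with prior count 2 on the log2 scale. Alternatives used DESeq2 1.42.0, limma 3.58.1 and sva 3.50.0 in R 4.3.3; permutation tests used scipy 1.17.1 and figures matplotlib 3.10.9. The fit was tested on simulated data. Pairs of libraries of the same group differed by a chi-square of at least 2.94 per degree of freedom over genes with at least 20 counts, so each counted as 1 replicate. Animal numbers recur across tissues and were used as a block only as an alternative.

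The comparison, the 34 gene lists and the naming rule were chosen with earlier results of these data known. Named genes are the 12 higher and 12 lower with the smallest p, the 5 with the highest and 5 with the lowest log2 fold change among genes with a mean of at least 1 CPM and an unadjusted p under 0.05, and of each list the first 3 members and the 4 with the smallest unadjusted p under 0.05. They also take 6 genes in each direction that pass in DESeq2, and for each interaction 4 passing genes or the 2 with the smallest p; predicted gene models were left out of the first 2 groups. No member of the mitochondrial transcript list was tested. Members of a list under the filter have no value. The single-gene results of 3 list members are not reported here; they stayed in the fit and in the list counts.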

Additional observations from a re-analysis of the deposited data

Results flagged for a closer look

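In 152 sets of values (a named gene or a list sum in the vehicle or the 6 mg/kg libraries), 14 held a library whose gap to its nearest neighbour was large for its group (Dixon's test at the 95% level), where chance gives about 7.6. Animal 54 at 6 mg/kg held 7 of the 14: Arrb2 at 61.9 CPM, Luzp1 at 47.9 CPM, Ier2 at 11.9 CPM, and the sums of the aryl hydrocarbon receptor genes at 38.8 CPM, the glutamate synapse genes at 5498 CPM, the respiratory chain genes at 14826 CPM and the ribosomal protein genes at 20109 CPM. Zfp260 was lowest in animal 56, at 25.8 CPM. The choroid plexus and ependyma sum was highest in animal 52 at 6 mg/kg, at 3759 CPM.

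In the vehicle group, Fos at 46.7 CPM and the red blood cell sum at 545 CPM were highest in animal 8, the choroid plexus and ependyma sum at 1215 CPM and the sum of septal and thalamic neuron markers at 378 CPM were highest in animal 4, and Igf1 was lowest in animal 7, at 3.26 CPM.

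The effect of 6 mg/kg differed between striatum and liver for 4 genes by the test of the interaction (edgeR adjusted p 0.0238 for Usp2 and 0.0368 for the others). Striatum minus liver, the log2 values were -1.82 for Usp2 (SE 0.283), 1.68 for Dnajb9 (SE 0.290), -1.62 for Trib1 (SE 0.285) and -1.82 for Wee1 (SE 0.322). With the animal number as a replicate block, or without vehicle animal 7, vehicle animal 8 or animal 52, 0 genes passed.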

How the results depend on the processing

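For striatum at 6 mg/kg against vehicle (0 genes), DESeq2 gave 31 genes; the reference 0.1 mg/kg gave 440, 1 mg/kg 2755 and the mean of the 3 other groups 2331; with the GC content and length offset these became 68, 414 and 188. Each remaining alternative gave 0, with 1536 to 2955 genes at an unadjusted p under 0.05: limma-voom, median-ratio factors, library totals, no filter, a mean of at least 10 counts, the 2 groups alone, 1 surrogate variable, thinning, the offset, the GC slope, the GC slope with the mean reference, the cortical marker score and each library left out (0 to 0, with 1539 to 2622). For the liver interaction (4 genes), DESeq2 gave 134, the animal number as a replicate block 0 (1765 unadjusted), and leaving out an animal 0 to 12, the 12 without animal 56. For the prefrontal cortex interaction every alternative gave 0, and the replicate block 0 with 1323 unadjusted against 967. The count of 12 lower immediate early genes was 4 against 1 mg/kg, read against 17.2% of all genes lower in that fit. With the cortical score it was 7, read against 9.44%, and with a library left out 7 to 15. Against 1 mg/kg with the offset it was 7, where 2842 of 15118 genes had an unadjusted p under 0.05 in either direction. References under the offset, the GC slope with the mean reference and the cortical score were chosen after seeing the data. Deviations of libraries with the same animal number correlated by -0.087 to 0.220 with prefrontal cortex (6 of 10 over 0.1, 4 of 10 highest with their own number). With liver they correlated by -0.067 to 0.112 (1 of 10 over 0.1). The mean was 0.107 for equal and -0.022 for different numbers with prefrontal cortex, and 0.014 and -0.0041 with liver. These values cannot settle whether equal numbers are the same mouse. The main fit did not take the numbers as pairs.

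For 101 named genes with an unadjusted p under 0.05, each log2 fold change was refitted under every alternative, except Alas2 in the 2 groups alone and Lpxn at a mean of at least 10 counts, where the filter removed them: 57 kept that p with any 1 library left out, and 13 values changed sign. Named genes above that p, such as Ttr and Malat1, were not among the 101 and some changed sign with a library left out. Against 1 mg/kg, Hsd11b1 was -0.47 and Opalin -0.0078. With the offset they were, against the mean of the other groups, Hnrnpu 0.018 and Arl5a 0.026. Against 1 mg/kg with the offset they were Hnrnpu 0.11, Hnrnpll 0.018, Gria2 0.048, Arl5a 0.051, Hsd11b1 -0.34 and C1ql1 -0.016. Against 0.1 mg/kg with the offset they were Arl5a 0.047, Cacna1d 0.035 and Th -0.082. The cause was not tested. Library totals (8.28 to 12.02 M counts) limit genes of a few CPM, such as Igf1 and Traf1.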
